A study of Mus musculus with 8 samples.

Results

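The BCL2 family decides whether a T cell whose mitochondria are under stress lives or dies. The 10 members described here were chosen by gene symbol, not by their values: the pro-survival genes Bcl2, Bcl2l1, Mcl1, Bcl2a1b and Bcl2a1d, the BH3-only genes Bcl2l11, Bad, Bid and Bmf, and the effector Bak1. They are 10 of the 32285 features counted in pancreatic T cells of NOD mice, which become diabetic through autoimmunity without any induction. Pro-survival proteins (BCL-2, BCL-XL from Bcl2l1, MCL-1 and A1) hold the effectors BAX and BAK in check at the outer mitochondrial membrane. BH3-only proteins such as BIM (from Bcl2l11) bind the pro-survival proteins when a cell loses growth factor or antigen signals, which frees the effectors to open the membrane. In T cells, BIM and BCL-2 are known for setting how many cells remain when a response contracts, MCL-1 for keeping T cells alive at most stages, and A1 for being induced by antigen receptor and NF-kB signalling.

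The series holds 8 single-cell libraries, and its design text names the effect of a 2-drug treatment on T cells that infiltrate the pancreas as the question. All mice were NOD mice labelled as spontaneously diabetic females 3 to 4 months old. One library came from active disease (blood glucose above 600 mg/dl) and another from new onset (250 mg/dl), both harvested on day 1 as controls. The other 6 came from new-onset mice (200 to 300 mg/dl, 3 to 5 months old in the protocol) given PPCA or vehicle daily and labelled day 2, 3 or 4, with 1 library for each treatment and day. These are read here as days of harvest, the day after the last treatment, which the protocol does not spell out for each library. PPCA combined nutlin-3 at 50 mg/kg, which blocks MDM2, the ubiquitin ligase that degrades p53, with MK-1775 at 25 mg/kg, which inhibits the cell cycle kinase WEE1. Vehicle was 30% ethanol, 5% Tween 20 and 65% PEG300. Cells were sorted as CD45+ CD3+ TCR-beta+, frozen, and taken through RNA isolation at the same time.

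The libraries held between 36934580 and 67603740 UMIs (unique molecular identifiers, each standing for 1 captured RNA molecule). T cells were called by at least 2 UMIs over Cd3d, Cd3e, Cd3g, Trac, Trbc1 and Trbc2 and at most 1 UMI over 6 B cell and myeloid genes, which left 70554 cells, 6180 to 11547 in each library. Cells with a Cd4 UMI and none of Cd8a or Cd8b1 formed the CD4 gate (27483 cells), and the reverse formed the CD8 gate (22250 cells). The CD8 gate was divided by the chemokine gene Ccl5, a marker of effector and memory cells, into 6551 Ccl5+ and 15699 Ccl5- cells. Foxp3+ cells, those with a UMI of the regulatory T cell factor Foxp3, numbered 2579 (220 to 475 in each library): 1129 were in the CD4 gate, 262 in the CD8 gate and 1188 in neither. A Foxp3 UMI was found in 4.11% of CD4-gated and 1.18% of CD8-gated cells, at median depths of 3851 to 6154 and 4277 to 7259 UMIs a cell across libraries. Any pair of libraries shared 14 to 41 cell barcodes, at most 0.431%.

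Sex-linked RNA went against the label in 4 of the 8 libraries. Xist, the RNA of the inactive X chromosome, stood at 418 to 622 CPM (UMIs in 1000000 UMIs of the summed cells) in active, onset, PPCA day 2 and vehicle day 4, and below 1 CPM in vehicle day 2, vehicle day 3, PPCA day 3 and PPCA day 4. In those last 4 libraries 4 Y-linked genes summed to 186 to 273 CPM. On day 3 both treatment libraries were of the second kind, whereas on days 2 and 4 the 2 treatments differed in it, in opposite order. Whether the sex label or the identity of a library is wrong cannot be told from the files, so PPCA, vehicle, day, active and onset below mean the libraries so labelled. The labels do not say how many mice each library held, so p-values measure the spread between these libraries, which may be technical. Levels below are CPM, and a sum over cells cannot tell fewer expressing cells from less RNA in each cell. Fitted differences are log2 fold changes with their standard errors (SE), from edgeR's quasi-likelihood test over all genes with TMM scaling (each library scaled to the bulk of its genes) and Benjamini-Hochberg adjustment, with 0.05 as the threshold.

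The promoters of the 4 members the results turn on are shown because the A1 copies were both higher in the Ccl5 and the Foxp3 comparison, and because Mcl1 and Bcl2l11 were both higher on day 4 in CD4 and CD8 cells, though not between all gates. Each runs from 250 bases before to 30 bases after a transcription start annotated by RefSeq on GRCm38.p6, read 5′ to 3′ on the strand of the gene. They lie at chr9:89199023-89199302 on the plus strand (Bcl2a1b), chr9:88731821-88732100 on the minus strand (Bcl2a1d), chr3:95658471-95658750 on the plus strand (Mcl1) and chr2:128125788-128126067 on the plus strand (Bcl2l11, the more upstream of its annotated starts). The 2 A1 windows are offset, since their annotated starts differ: the first 50 bases of Bcl2a1d and the last 44 of Bcl2a1b lie outside the shared stretch and are in lower case. Within that stretch capitals mark the bases that differ or have no partner, and in Mcl1 and Bcl2l11 they mark a motif match.
Bcl2a1b: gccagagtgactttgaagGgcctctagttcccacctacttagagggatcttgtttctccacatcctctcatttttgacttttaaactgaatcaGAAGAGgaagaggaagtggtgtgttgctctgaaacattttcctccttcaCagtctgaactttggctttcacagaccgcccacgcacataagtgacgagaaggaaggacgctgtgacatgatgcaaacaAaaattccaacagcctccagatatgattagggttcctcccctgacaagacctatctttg
Bcl2a1d: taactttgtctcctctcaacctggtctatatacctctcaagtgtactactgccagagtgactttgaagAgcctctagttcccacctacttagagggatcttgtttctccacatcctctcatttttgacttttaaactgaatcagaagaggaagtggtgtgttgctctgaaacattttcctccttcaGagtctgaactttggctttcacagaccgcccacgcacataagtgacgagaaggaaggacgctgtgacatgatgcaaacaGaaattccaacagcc
Mcl1: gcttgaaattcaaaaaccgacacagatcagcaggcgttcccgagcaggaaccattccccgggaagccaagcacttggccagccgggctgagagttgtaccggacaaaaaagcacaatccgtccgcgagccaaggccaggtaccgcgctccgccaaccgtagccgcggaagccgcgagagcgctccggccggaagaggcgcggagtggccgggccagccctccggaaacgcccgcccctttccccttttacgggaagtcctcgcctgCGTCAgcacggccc
Bcl2l11: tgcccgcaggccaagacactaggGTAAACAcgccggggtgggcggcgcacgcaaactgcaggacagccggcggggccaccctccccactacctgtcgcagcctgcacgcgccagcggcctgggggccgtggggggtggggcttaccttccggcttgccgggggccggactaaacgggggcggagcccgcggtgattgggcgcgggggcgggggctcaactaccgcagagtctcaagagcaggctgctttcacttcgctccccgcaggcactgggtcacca

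In the stretch shared by the 2 A1 windows 247 of 250 aligned bases were identical and 6 bases of Bcl2a1b had no partner, for 300-base windows that run 50 bases past the start. The GENCODE transcripts of Bcl2a1b and Bcl2a1d matched at 810 of 817 aligned bases (99.1%), and their last 300 bases, the end a 3′ kit reads, at 296 of 298. How reads that fit both copies were counted is not given in the sources used here, so the division of UMIs between Bcl2a1b and Bcl2a1d is uncertain. All 10 members matched a RefSeq entry, and 7 motifs were searched on both strands in their 300-base windows: AP-1 (TGANTCA), FOXO (GTAAACA), CRE (TGACGTCA), its first part TGACG, which every full CRE also holds, STAT (TTCNNNGAA), NF-kB and a single p53 decamer, the last pair by name. Both A1 windows held TGANTCA (starting 164 bases before the start in Bcl2a1b and 114 before it in Bcl2a1d), which 7.81% of 32851 promoter windows held. TGACG was in both A1 windows too (66 and 22 bases before the start), and Mcl1 had it, read here as CGTCA, 16 bases after its start (20.81% of windows). Bcl2l11 had GTAAACA 227 bases before the start shown (3.65% of windows) and none in the window of its other annotated start. The NF-kB pattern, in 4.51% of windows, was in none of the windows of these 4 genes. These are matches of letters only, and a missing match says only that the letters are not in that window.

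The A1 copies had the largest fitted differences of the 9 tested members in 2 of the 3 comparisons between gates. In CD8-gated cells with Ccl5 both were far higher than in those without it, and in Foxp3+ cells both were higher than in CD4-gated cells without a Foxp3 UMI. Bcl2a1b ranged over the 8 libraries from 28.0 to 50.5 CPM (median 36.8) in Ccl5- cells, and from 74.7 to 190 CPM (median 136) in Ccl5+ cells. Bcl2a1d ranged from 1.45 to 7.16 CPM (median 3.54) in Ccl5- cells and from 21.6 to 56.3 CPM (median 41.4) in Ccl5+ cells. For neither gene did the ranges of these 2 gates overlap. With the library as a block, Bcl2a1b was 3.20-fold higher in Ccl5+ cells (log2 1.68, SE 0.057, adjusted p = 1.0e-15) and Bcl2a1d 9.87-fold higher (log2 3.30, SE 0.10, adjusted p = 1.6e-16), in 8 of 8 libraries each. The gate rests on Ccl5 alone, and NK cell markers moved with it: 4 of them summed to 145 to 262 CPM in Ccl5+ and 13.5 to 56.9 CPM in Ccl5- cells, and both that could be tested rose. Most of that sum was Eomes (101 to 167 CPM against 13.2 to 56.1 CPM) and Klre1 (42.9 to 129 CPM against 0.0751 to 1.00 CPM). Ncr1 and Klrb1c had medians of 0.918 and 0 CPM in Ccl5+ cells. Myeloid markers (10 genes) summed to 128 to 209 CPM against 107 to 138 CPM, with 2 of the 2 tested higher. Most of the myeloid sum was Cst3 (123.6 to 186.5 CPM against 102.7 to 131.4 CPM), and S100a8, S100a9, Cd14 and C1qa had medians of 0 in Ccl5+ cells. Of 7 tested pancreas genes 2 were higher in Ccl5+ cells (sums of 13.3 to 151 against 9.40 to 145 CPM). Of 4 tested B cell markers 2 were higher and 2 lower (sums of 88.1 to 192 against 122 to 263 CPM). Regulatory T markers were split in the same way, 2 higher and 2 lower of 6 (115 to 310 against 111 to 194 CPM). Resting markers were lower in 4 of 5 (1306 to 1688 against 1982 to 2616 CPM). The CD8 effector and memory markers were higher in 6 of 6 (6506 to 12830 against 408 to 695 CPM). These include Ccl5, which set the gate, so its call and its 4939 to 10250 CPM in Ccl5+ cells were fixed in advance. Among the rest, Nkg7 was 1056 to 1625 CPM against 366 to 578 CPM and Cxcr6 201 to 676 CPM against 19.3 to 91.5 CPM. Of 9 early response genes 2 were higher and 1 lower (702 to 5331 against 644 to 4971 CPM), as were 2 and 1 of 6 NF-kB feedback genes (291 to 1587 against 245 to 1331 CPM). Their part in the A1 difference was not tested.

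In Foxp3+ cells Bcl2a1b ranged from 120 to 287 CPM (median 158), against 32.5 to 106 CPM (median 45.1) in CD4-gated cells without a Foxp3 UMI. Bcl2a1d ranged from 20.0 to 75.4 CPM (median 28.8) against 4.96 to 25.4 CPM (median 8.64). The Bcl2a1b ranges stayed apart, and those of Bcl2a1d overlapped through the PPCA day 4 library, the highest of both gates. Within each library both were higher in Foxp3+ cells, by 2.92-fold for Bcl2a1b (log2 1.55, SE 0.058, adjusted p = 9.1e-19) and 2.80-fold for Bcl2a1d (log2 1.49, SE 0.10, adjusted p = 4.0e-13). Foxp3 itself set the gate, and the other 5 regulatory T cell markers summed to 1650 to 2373 CPM, against 141 to 407 CPM in the CD4 cells without Foxp3, with 5 of 5 higher. Markers of B cells moved with this gate too, 6 of them summing to 292 to 494 CPM against 111 to 214 CPM, and 4 of the 4 testable ones rose. Most of that sum was Ighm (244 to 429 CPM against 102 to 209 CPM). Cd79b, Igkc and Cd74 had medians of 12.1, 13.1 and 12.4 CPM against 1.33, 1.46 and 2.19 CPM, Ebf1 was at no more than 2.26 CPM, and Pax5 was at 0 in all 8 Foxp3+ sums. Myeloid markers summed to 171 to 223 CPM against 119 to 146 CPM (2 of 4 tested higher, 1 lower), most of it Cst3 (140.3 to 198.2 CPM against 109.6 to 130.8 CPM). The 6 NF-kB feedback genes summed to 610 to 3436 CPM against 320 to 2017 CPM, 5 of 6 rising. The 6 CD8 effector and memory markers, Ccl5 among them, summed to 395 to 906 CPM against 113 to 496 CPM, with 5 of 6 higher, and the 1 NK gene that could be tested rose. Resting markers were lower in 5 of 5 (1087 to 1492 against 2302 to 2686 CPM), and of 9 early response genes 2 were higher and 3 lower (1690 to 8939 against 1062 to 7617 CPM). The part of these transcripts in the results was not tested. With only the Foxp3+ cells of the CD4 gate, where the effector and memory sum was 189 to 622 CPM, Bcl2a1b gave 1.62 (adjusted p = 1.6e-19) and Bcl2a1d 1.81 (adjusted p = 2.1e-13).

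**Figure D1:**
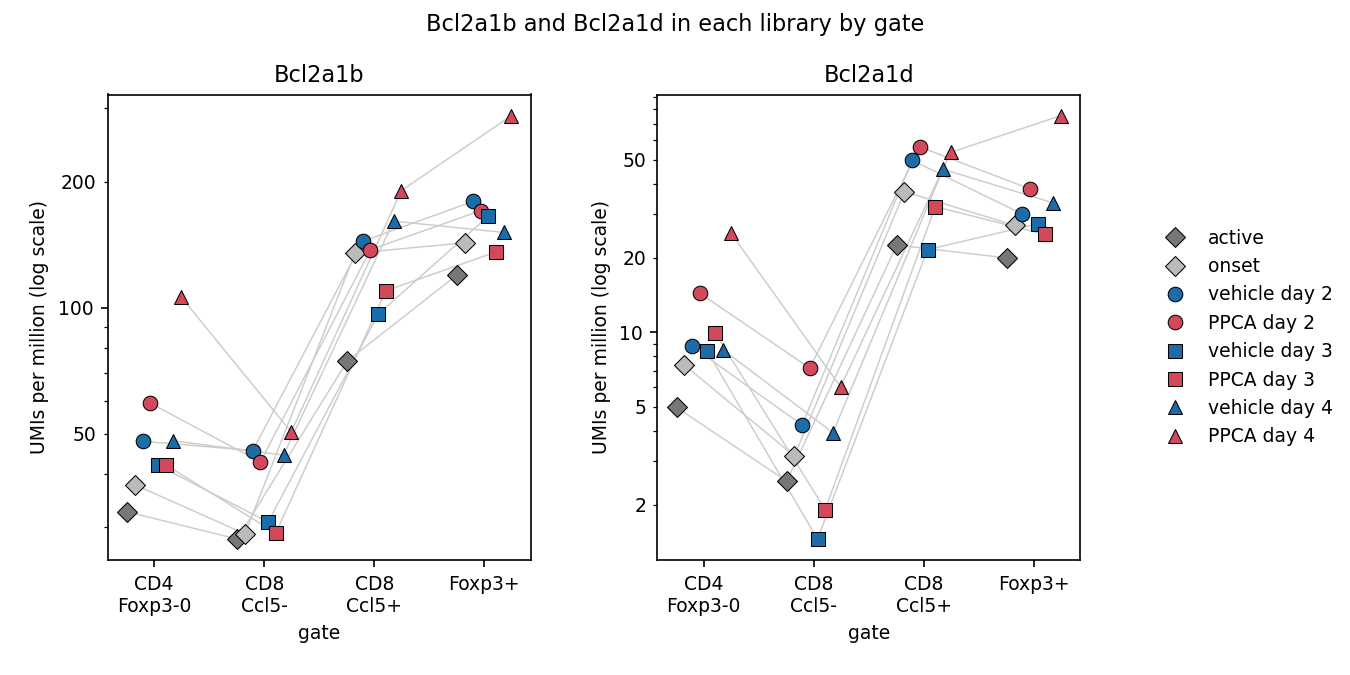
Level of Bcl2a1b (left) and Bcl2a1d (right) in CPM on a log scale, by gate, with 1 point for each of the 8 libraries and grey lines joining the values of a library. In both panels each library's Ccl5+ point lies above its Ccl5- point (3.20-fold and 9.87-fold by the fit), and its Foxp3+ point above its CD4 Foxp3-0 point, CD4-gated cells with 0 Foxp3 UMIs.

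The 2 copies did not move by the same factor. The ratio of Bcl2a1d to Bcl2a1b UMIs was 0.0473 to 0.167 in Ccl5- cells and 0.224 to 0.409 in Ccl5+ cells, higher in 8 of 8 libraries, with a mean log2 difference of 1.70 (SD 0.39, n = 8, exact two-sided sign-flip test p = 0.0078, the smallest it can give, adjusted p = 0.020 over 5 ratio comparisons). It was 0.166 to 0.262 in Foxp3+ cells and 0.153 to 0.244 in CD4 cells without Foxp3, a mean difference of -0.04 (SD 0.23, n = 8, exact sign-flip p = 0.63). Ccl5+ CD8 cells had a higher ratio than Foxp3+ cells in 8 of 8 libraries (mean 0.61, SD 0.31, n = 8, exact sign-flip p = 0.0078, adjusted p = 0.020). With only the Foxp3+ cells of the CD4 gate, at 19 to 44 UMIs of Bcl2a1d in each library, the ratio was 0.181 to 0.294. It then exceeded that of CD4 cells without Foxp3 in 6 of 8 libraries, turning the sign (mean 0.23, SD 0.28, n = 8, exact sign-flip p = 0.039, adjusted p = 0.049). The gap to Ccl5+ cells fell to 0.34, with Ccl5+ higher in 7 of 8 (SD 0.31, n = 8, exact sign-flip p = 0.016, adjusted p = 0.026). These ratios were chosen after their values were seen, and how the authors' counting placed shared reads enters each of them. Another copy, Bcl2a1a, was counted with 113 UMIs over all T cells, 69 of them in Ccl5+ CD8 cells (0.371 to 5.55 CPM) and 3 in Ccl5- cells.

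Of the 9 members that passed the low-count filter, 5 differed between Ccl5+ and Ccl5- CD8 cells, beside 41.4% of the 10388 genes tested. They were 4 higher (19.5% of genes) and 1 lower (22% of genes). Bcl2l1, which encodes BCL-XL, ranged from 6.68 to 14.4 CPM (median 10.2) in Ccl5+ and from 4.43 to 7.97 CPM (median 5.87) in Ccl5- cells. These ranges overlapped, but in 8 of 8 libraries the Ccl5+ value was the higher one (log2 0.69, SE 0.12, adjusted p = 7.9e-05). The BIM gene Bcl2l11 rose by 0.16 (SE 0.055, adjusted p = 0.028), with a median of 45.5 CPM against 41.6 CPM. Its call was lost without the active, the vehicle day 3 or the vehicle day 4 library, with DESeq2 (adjusted p = 0.10), with no low-count filter (0.082) and in cells thinned to 2000 UMIs (0.25). Bid, which links death receptors to mitochondria once caspase-8 cuts it, was lower in Ccl5+ cells in 6 of 8 libraries (log2 -0.40, SE 0.11, adjusted p = 0.0077), with 4.66 to 13.7 CPM (median 9.41) against 7.01 to 13.2 CPM (median 11.1). Its call was lost without the library block (adjusted p = 0.11), with only the libraries that had Xist (0.072) and with cells thinned to 2000 UMIs (0.096). Bcl2 (log2 0.12, adjusted p = 0.072), Mcl1 (-0.02, 0.58), Bad (0.06, 0.59) and Bak1 (0.11, 0.23) did not pass, though Bcl2 did without the onset library (0.19, adjusted p = 0.00085) or without PPCA day 2 (0.15, adjusted p = 0.040), and with no doublet removal (0.13, adjusted p = 0.045). Scaled to total UMIs, which moved the median of all genes from -0.02 to 0.09, genes called higher and lower were 3554 and 1227 instead of 2022 and 2283. Bcl2 (0.24), Bak1 (0.22) and Mcl1 (0.09) then passed as higher, and Mcl1 changed sign.

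Among genes around the members, 4 other BCL2 family genes of 9 tested were higher and 1 lower in Ccl5+ cells. Bcl2l15, a little-studied relative, was 11.6-fold higher, and Pmaip1, which encodes the BH3-only protein NOXA, 1.58-fold higher (log2 0.66, adjusted p = 4.0e-05). Bbc3, the gene of the BH3-only protein PUMA, rose by 0.43 (adjusted p = 0.000195), and the effector gene Bax did not pass (-0.04, 0.39). Of 13 genes of the mitochondrial death machinery 3 were higher and 1 lower, among them Apaf1, the scaffold of the apoptosome, at 1.83-fold. Of 13 death receptor genes 5 were higher and 3 lower, led by Fasl, the ligand by which killer cells engage FAS, at 24.8-fold. Of 20 genes of survival inputs 4 were higher and 7 lower: Il2rb (2.46-fold) and Il15ra (2.39-fold), receptor chains for IL-2 and IL-15, rose. Among 5 genes of MCL1 protein turnover 2 were lower, Huwe1 and Usp9x. List medians ran from -0.05 to 0.07, beside -0.02 for all genes.

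In Foxp3+ cells 8 of 9 tested members differed from CD4 cells without Foxp3, beside 38.5% of 10663 genes: 7 were higher (19.2% of genes) and 1, Bcl2l11, lower (19.4%). Bcl2l1 stood at 13.3 to 32.9 CPM (median 15.2) against 5.92 to 9.19 CPM (median 7.28). Its ranges did not overlap (2.19-fold, log2 1.13, SE 0.16, adjusted p = 7.7e-07), with vehicle day 3 the highest Foxp3+ library. Mcl1 was 341 to 616 CPM (median 464) against 233 to 549 CPM (median 366), higher within 8 of 8 libraries by 0.14 (SE 0.042, adjusted p = 0.0081), a call lost without vehicle day 3 (0.11, adjusted p = 0.056), with no low-count filter (0.30) and in the libraries with Xist alone (0.28). Bad, whose protein is held inactive by growth factor kinases, was 18.5 to 28.7 CPM against 12.9 to 16.6 CPM, with no overlap (log2 0.51, SE 0.10, adjusted p = 0.00013). Bid stood at 8.76 to 17.1 CPM against 4.40 to 8.28 CPM, again apart (log2 0.82, SE 0.15, adjusted p = 4.6e-05). Bak1 passed narrowly (0.26, SE 0.10, adjusted p = 0.047) and lost its call when any 1 library other than onset or vehicle day 4 was left out, and with RLE scaling (adjusted p = 0.053), DESeq2 (0.10), no low-count filter (0.25), gate genes at 2 UMIs (0.27), the libraries with Xist alone (0.31) or thinned cells (0.96). Bcl2l11 was lower by the fit (-0.30, SE 0.080, adjusted p = 0.0034) but in 5 of 8 libraries only, with medians of 47.4 CPM in Foxp3+ and 43.6 CPM in the other cells. Bcl2 did not pass (0.05, SE 0.067, adjusted p = 0.61).

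Scaling decided part of this comparison. With total UMIs as the scale the median of all genes moved from -0.01 to 0.18, and 4362 genes were called higher and 834 lower instead of 2042 and 2068. Bcl2 then passed as higher (0.24) and Bcl2l11 did not pass (-0.10). With only the Foxp3+ cells of the CD4 gate Mcl1 (adjusted p = 0.39), Bak1 (0.068) and Bid (0.17) lost their calls. Thinned to 2000 UMIs a cell, Bid gave 0.70 (adjusted p = 0.097), Bcl2l11 -0.19 (0.35) and Bcl2, now past the threshold, 0.23 (0.022). Of the other BCL2 family 3 of 9 tested genes rose and 0 fell: Bcl2l15 was 9.32-fold, Pmaip1 4.05-fold and the mitophagy gene Bnip3l 1.11-fold higher. Pmaip1 ranged from 16.3 to 43.8 CPM in Foxp3+ and from 2.74 to 13.6 CPM in the other cells, without overlap. Of the death machinery list 4 of 13 rose and 3 fell, the caspase inhibitor gene Xiap being among those that rose (0.43). Of the death receptor genes 5 of 13 rose and 2 fell. Tnfrsf1b, which encodes the second TNF receptor, was 4.17-fold and Fas 2.03-fold higher, while Fasl fell by 1.08 on the log2 scale. Among survival inputs 10 of 20 rose and 4 fell. The IL-2 receptor chains Il2ra and Il2rb were 27.0-fold and 8.40-fold higher, and Il7r, the IL-7 receptor that sustains resting T cells, fell by 1.26 (adjusted p = 3.0e-17), lower in 8 of 8 libraries.

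CD8-gated cells as a whole had more Bcl2, Bak1, Bid and Bcl2a1b and less Mcl1 and Bcl2l11 than CD4-gated cells, 6 of 9 tested members beside 46.3% of 11574 genes. The 4 higher members stand beside 23.4% of genes higher and the 2 lower ones beside 22.9% lower. Bcl2 was 222 to 318 CPM in CD8 and 194 to 273 CPM in CD4 cells, higher in CD8 in 8 of 8 libraries (log2 0.32, SE 0.056, adjusted p = 0.00028). Mcl1 was lower in CD8 in 8 of 8 libraries (-0.31, SE 0.027, adjusted p = 1.9e-07), at 192 to 400 CPM against 239 to 550 CPM. The ranges of both genes overlapped between the gates, so the difference lies within libraries. Bid had 7.47 to 13.3 CPM against 4.40 to 8.47 CPM, higher in 8 of 8 (0.76, SE 0.088, adjusted p = 3.9e-06). Bak1 was higher in 7 of 8 (0.25, SE 0.047, adjusted p = 0.00048) and Bcl2l11 lower in 6 of 8 (-0.14, SE 0.044, adjusted p = 0.018). Bcl2a1b was higher in 5 of 8 only (0.26, SE 0.088, adjusted p = 0.025) and lost its call without any 1 of 4 libraries (onset, vehicle day 2, PPCA day 2 or vehicle day 4), with DESeq2 (adjusted p = 0.091) and with gate genes at 2 UMIs (0.16). The Bcl2l11 call was lost without vehicle day 3, vehicle day 4 or PPCA day 4, with gate genes at 2 UMIs (adjusted p = 0.094), in the libraries with Xist alone (0.148) and in thinned cells (0.145). Bcl2l1 (-0.06, adjusted p = 0.67), Bad (0.10, 0.095) and Bcl2a1d (0.30, 0.18) did not pass, although Bcl2a1d did without vehicle day 3 (0.44, adjusted p = 0.040), with no low-count filter (0.30, 1.4e-05), in the libraries with Xist alone (0.71, 0.00011) and in thinned cells (0.40, 0.047). NK markers summed to 55.7 to 129 CPM in CD8 and 2.32 to 8.64 CPM in CD4 cells, and 8 of 9 tested early response genes were lower in CD8 cells. Of B cell markers 2 of 4 tested were higher in CD8 cells (sums of 111 to 238 against 117 to 233 CPM), and of myeloid markers 2 of 4 were lower (115 to 169 against 123 to 149 CPM). Regulatory T markers were lower in 6 of 6 (112 to 228 against 213 to 499 CPM), NF-kB feedback genes in 4 of 6 (257 to 1418 against 337 to 2078 CPM) and red cell genes in 1 of 1 tested (0 to 9.75 against 0.0806 to 170 CPM). Resting markers were lower in 4 of 5 and higher in 1 (1888 to 2195 against 2236 to 2605 CPM), and CD8 effector and memory markers higher in 5 of 6 and lower in 1 (1856 to 5630 against 119 to 497 CPM). Their part in these differences was not tested. With total UMIs as the scale, 2033 genes were called higher and 3473 lower instead of 2713 and 2650, and Bcl2a1b did not pass (0.22, adjusted p = 0.075).

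Around the members, Pmaip1 was higher in CD8 cells in 8 of 8 libraries (log2 0.77, adjusted p = 0.00013), Bbc3 by 0.29 (adjusted p = 0.022) and Bax by 0.10 (adjusted p = 0.0017). In all, 4 of 10 other family genes were higher and 1 lower. Il2ra (3.92-fold lower) and Il2rb (2.89-fold higher) moved in opposite directions, and Pim2, a survival kinase, was 2.03-fold higher. Tnfsf10, the gene of the death ligand TRAIL, was 1.97-fold and Fasl 1.75-fold higher. Survival inputs had 6 of 20 higher and 10 lower, death receptor genes 5 of 13 in each direction, and the death machinery 4 of 13 higher and 3 lower. Usp9x and Gsk3b, the 2 of 5 MCL1 turnover genes that changed, were both lower.

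**Figure D2:**
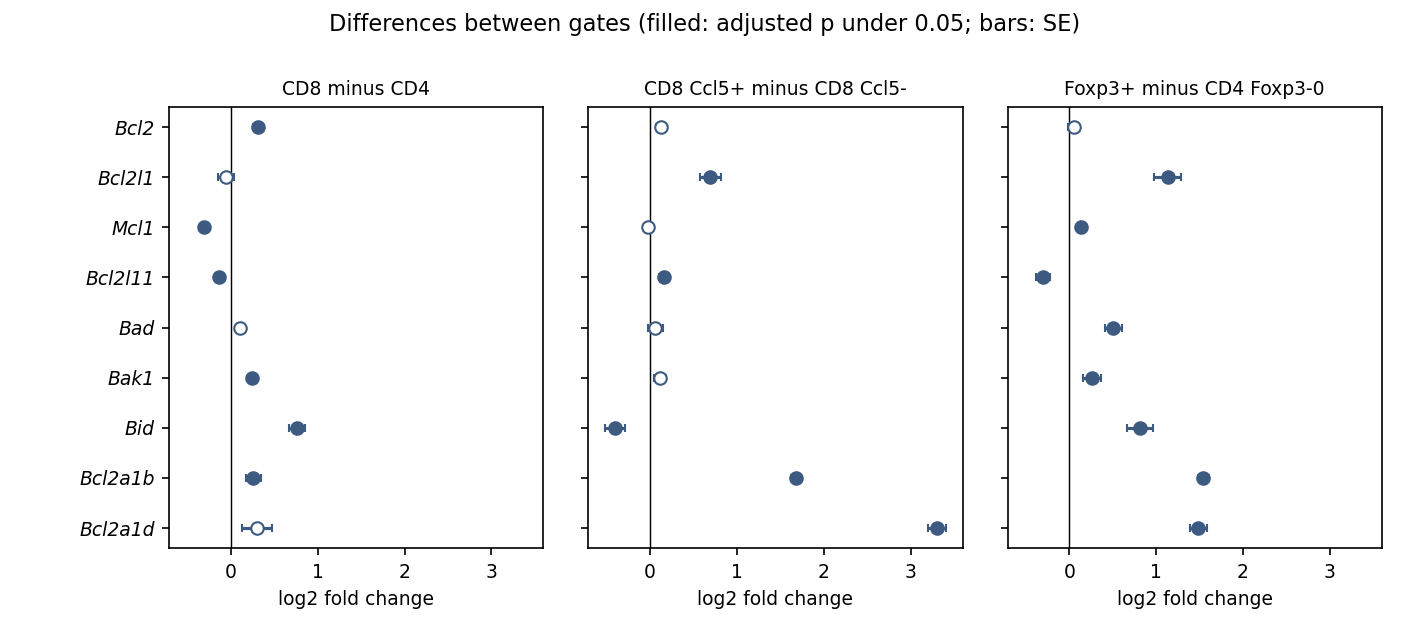
Fitted log2 fold change of the 9 tested members (x axis) in the 3 comparisons between gates, with bars of 1 SE and filled points at an adjusted p under 0.05. Bcl2a1d in the Ccl5 comparison, at 3.30, lies farthest from 0, and Mcl1 changes side between the CD8 against CD4 panel (-0.31) and the Foxp3+ panel (0.14).

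Set in order of mean level within a gene, Bcl2l1, Mcl1 and Bcl2a1b were each highest in Foxp3+ cells (17.9, 462 and 169 CPM). So were the BH3-only genes Bad (23.996 CPM) and Bid (11.789 CPM) and the effector Bak1 (20.952 CPM). With only the Foxp3+ cells of the CD4 gate Bid fell to 9.1491 CPM, below Ccl5- cells (10.688 CPM). Bcl2l11 was highest in Ccl5+ cells (52.729 CPM). Bcl2a1d was highest in Ccl5+ CD8 cells (39.8 CPM) with Foxp3+ cells next (34.6 CPM), an order that turned with only the Foxp3+ cells of the CD4 gate (42.4 CPM). Bcl2 was highest in Ccl5+ cells (297 CPM) and lowest in CD4 cells without Foxp3 (219 CPM). Ranges of neighbours in these orders overlapped for each member. Bmf, a BH3-only gene tied to the cytoskeleton, gave 15 UMIs over the 70554 T cells. Of these, 3 fell in the CD4 gate, 6 in the CD8 gate and 2 in Foxp3+ cells, and the gene was below the low-count filter in every fit that used one. In 5 of the 8 CD4 sums Bmf had 0 UMIs, which allows up to 0.122 to 0.214 CPM (3 counts of each library's total), so a difference in Bmf was not detectable at this depth.

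PPCA against vehicle gave no call for any member. In none of the 4 gates did 1 of the 9 tested members pass (smallest adjusted p = 0.64), beside 0% of 11598 genes called in CD4, 0.01% of 10000 in Ccl5+ CD8, 0% of 11115 in Ccl5- CD8 and 0.0831% of 8423 in Foxp3+ cells. At an unadjusted p under 0.05 there were 2 members in CD4, 1 in Ccl5+, 1 in Ccl5- and 0 in Foxp3+ cells, among 793, 643, 830 and 566 genes. DESeq2 called 35, 20, 33 and 15 genes and no member. The CPM of the 3 PPCA and the 3 vehicle libraries did not overlap for 2 members in CD4 cells (background 4.82%), 1 in Ccl5+ (5.42%), 0 in Ccl5- (5%) and 0 in Foxp3+ cells (7.85%). The fit keeps the harvest day as a factor and has 2 residual degrees of freedom.

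In CD4-gated cells Bcl2 was 273, 232 and 224 CPM with PPCA on days 2, 3 and 4, and 199, 194 and 196 CPM with vehicle. The PPCA libraries were higher on 3 of 3 days and the groups did not overlap, but the difference did not pass (log2 0.22, SE 0.10, adjusted p = 0.74). On day 3, when both libraries were alike in sex-linked RNA, PPCA exceeded vehicle by 0.26 on the log2 scale of CPM, against 0.46 on day 2 and 0.19 on day 4. Bcl2a1d was 16.6, 11.5 and 27.2 CPM with PPCA against 9.99, 10.0 and 9.12 CPM with vehicle. Again the groups were apart, the largest gap being on day 4 (log2 0.77 by the fit, SE 0.26, adjusted p = 0.71). Bcl2a1b, its near-identical copy, was 67.3, 47.1 and 114 CPM against 54.8, 50.2 and 50.3 CPM, higher on 2 of 3 days (0.39, SE 0.23, adjusted p = 0.79). The groups overlapped for Bcl2a1b, with PPCA day 4 far above the rest.

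Bak1 in CD4 cells was 15.1, 14.6 and 9.76 CPM with PPCA and 20.4, 17.9 and 12.2 CPM with vehicle. PPCA was lower on 3 of 3 days, with overlap because day 4 was low in both arms (-0.43, SE 0.12, unadjusted p = 0.0077, adjusted p = 0.65, edgeR). In Ccl5+ CD8 cells Bak1 was also lower on 3 of 3 days (-0.25, adjusted p = 0.82), and in Foxp3+ cells on 2 of 3 (-0.09, adjusted p = 0.96). Bcl2l11 was higher with PPCA on 3 of 3 days (52.6, 40.6 and 89.2 CPM against 38.8, 37.2 and 76.2 CPM), again with overlapping groups (0.18, SE 0.11, adjusted p = 0.79). Bcl2l1 was 9.64, 8.06 and 7.20 CPM against 7.64, 7.56 and 5.91 CPM, higher on 3 of 3 days (0.16, SE 0.16, adjusted p = 0.87). Mcl1 (-0.02), Bad (-0.07) and Bid (-0.07) had no common direction over the days. Without a low-count filter Bcl2a1d passed (0.76, adjusted p = 0.018), as it did with Xist presence as a factor (0.77, adjusted p = 0.028).

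In Ccl5+ CD8 cells Bcl2l1 was 10.1, 6.68 and 7.83 CPM with PPCA and 11.7, 14.4 and 11.7 CPM with vehicle. PPCA was lower on 3 of 3 days without overlap, at 18 to 68 UMIs of the gene in each of the 8 libraries, and did not pass (-0.67, SE 0.24, adjusted p = 0.70). Ccl5- cells were also lower on 3 of 3 days (7.62, 4.54 and 4.43 CPM against 7.97, 5.26 and 6.01 CPM), with overlap (-0.32, SE 0.19, adjusted p = 0.75). Bcl2l11 in Ccl5- cells was higher with PPCA on 3 of 3 days, at 45.8, 33.9 and 70.0 CPM against 38.5, 26.3 and 56.0 CPM (0.24, SE 0.093, adjusted p = 0.64). The Ccl5+ values of Bcl2l11, 47.6, 38.6 and 76.9 CPM against 43.3, 33.5 and 87.9 CPM, had no common direction (-0.04). Bcl2a1d in Ccl5- cells was 7.16, 1.91 and 6.01 CPM against 4.21, 1.45 and 3.92 CPM (0.54, SE 0.24, adjusted p = 0.67), higher on 3 of 3 days with overlapping groups.

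In Foxp3+ cells Bcl2 was 264, 265 and 175 CPM with PPCA and 265, 269 and 204 CPM with vehicle (-0.12, SE 0.11, adjusted p = 0.89). By day the difference on the log2 scale of CPM was -0.01, -0.02 and -0.22, so it lay mostly on day 4. In the Foxp3+ cells of the CD4 gate alone Bcl2 gave 0.24, 0.17 and -0.41, higher with PPCA on 2 of 3 days. Bcl2a1b was 170, 136 and 287 CPM against 179, 165 and 151 CPM, so that only the day 4 pair had more with PPCA, and leaving that day out turned the fitted 0.15 to -0.24. Bcl2l1 was 15.3, 21.1 and 13.3 CPM against 15.1, 32.9 and 16.7 CPM (-0.40, SE 0.26, adjusted p = 0.81). In the CD4 gate alone its differences by day were 0.02, -0.34 and 1.49, the last from 7 UMIs with PPCA and 3 with vehicle.

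**Figure D3:**
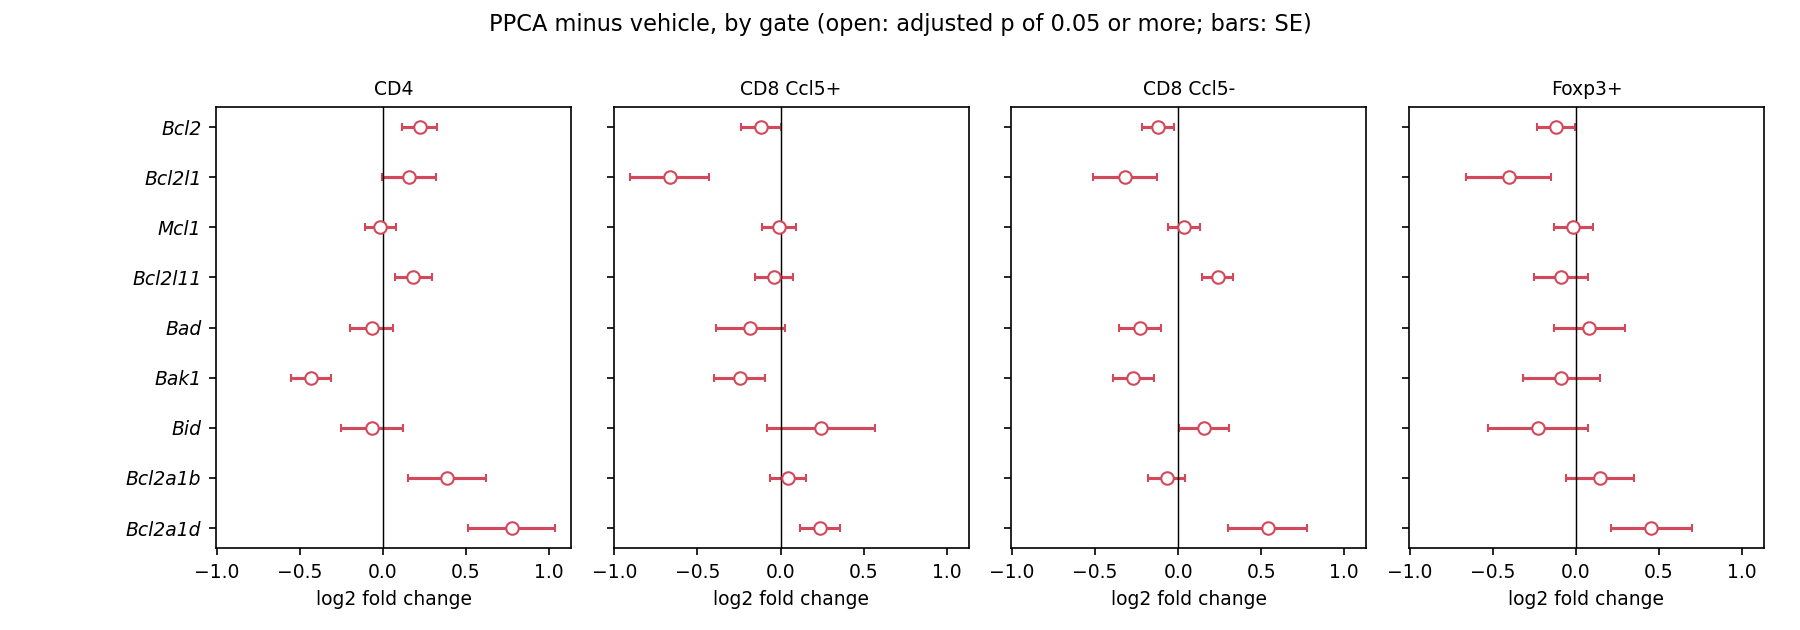
Fitted log2 fold change of PPCA against vehicle (x axis) for the 9 tested members in each of 4 gates, with bars of 1 SE over 3 PPCA and 3 vehicle libraries and the harvest day as a factor. Every point is open (adjusted p of 0.05 or more), and Bcl2l1 runs from 0.16 in CD4 cells to -0.67 in Ccl5+ CD8 cells.

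Whether the PPCA difference itself differed between gates was fitted as the difference in a gate minus that in CD4 cells, within days. For Bcl2 this was -0.34 in Ccl5- CD8 cells (SE 0.056, adjusted p = 0.033, edgeR's quasi-likelihood test), the only member past the threshold in 4 such fits, beside 0.0622% of 11254 genes. It was -0.34 for all CD8 cells (SE 0.068, adjusted p = 0.34, 0 members and 0.0173% of genes called) and -0.33 for Ccl5+ cells (adjusted p = 0.69, 0 members and 0.054% of genes). For Foxp3+ against CD4 cells without Foxp3 it was -0.36 (adjusted p = 0.057, 0 members and 0.223% of genes). At an unadjusted p under 0.05 there were 4 members for all CD8 (5.21% of genes), 5 for Ccl5+ (4.54%), 3 for Ccl5- (5.57%) and 2 for Foxp3+ cells (5.44%). DESeq2 called no member in any of the 4, and without day 3 the Ccl5- value (-0.34) had an adjusted p of 0.066. Without day 4 Bcl2 passed for all CD8 (-0.45) and Ccl5+ cells (-0.52), and without day 3 for Foxp3+ cells (-0.46). For Bcl2l1 the same difference was -0.59 in CD8, -0.84 in Ccl5+, -0.48 in Ccl5- and -0.56 in Foxp3+ cells, none past the threshold (adjusted p = 0.79, 0.79, 0.87 and 0.91). These fits were added after the data were seen and have 2 residual degrees of freedom among libraries.

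Genes that p53 is known to induce among the family were not called with PPCA either. Bbc3 in CD4 cells was 15.2, 15.2 and 64.5 CPM with PPCA and 18.6, 18.8 and 28.5 CPM with vehicle (0.15, SE 0.30, adjusted p = 0.93). It was lower with PPCA on days 2 and 3 and higher on day 4. Pmaip1 was 4.00, 3.47 and 14.6 CPM against 3.37, 4.89 and 11.0 CPM (0.01, SE 0.23, adjusted p = 0.995), and Bax gave -0.07 (SE 0.090, adjusted p = 0.90). Il7r was higher with PPCA on 3 of 3 days in CD4 cells, at 702, 563 and 944 CPM against 585, 489 and 381 CPM, with overlap (0.51, SE 0.22, adjusted p = 0.73). In Foxp3+ cells Il7r gave 0.78 (SE 0.20, adjusted p = 0.33). No gene of the 5 lists passed in any gate: in CD4 cells 0 of 10 other family genes, 0 of 13 and 0 of 13 death genes, 0 of 20 survival inputs and 0 of 5 MCL1 turnover genes.

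Members were called between harvest days. Mcl1 in CD4 cells was 502 and 550 CPM in the vehicle and PPCA libraries of day 4, against 372, 351, 239 and 266 CPM in vehicle day 2, PPCA day 2, vehicle day 3 and PPCA day 3. Bcl2l11 was 76.2 and 89.2 CPM on day 4 against 38.8, 52.6, 37.2 and 40.6 CPM. For both genes the 2 day 4 libraries lay above the other 4. Day 4 against the mean of days 2 and 3, with treatment as a factor, gave 1.95-fold for Mcl1 (log2 0.96, SE 0.096, adjusted p = 0.0018) and 2.19-fold for Bcl2l11 (1.13, SE 0.11, adjusted p = 0.0018). They were 2 of 9 tested members called in CD4 cells, beside 13.9% of 11940 genes: 2 higher (8.52% of genes) and 0 lower (5.39%). The groups did not overlap for 5 members (background 38.6%): Mcl1 and Bcl2l11 higher, and Bcl2l1, Bak1 and Bid lower on day 4.

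Bak1 in CD4 cells was 12.2 and 9.76 CPM on day 4 against 14.6 to 20.4 CPM before (-0.47, SE 0.13, adjusted p = 0.054), and Bid was 4.40 and 4.80 CPM against 6.57 to 8.47 CPM (-0.57, SE 0.20, adjusted p = 0.11). Bcl2a1b (0.66, SE 0.24, adjusted p = 0.11) and Bcl2a1d (0.61, SE 0.27, adjusted p = 0.17) were high in PPCA day 4 and not in vehicle day 4. Without PPCA day 4 Bcl2a1d gave -0.01, and without vehicle day 4 both passed (1.19 and 1.14). Bcl2 on day 4 was 196 and 224 CPM, inside the range of the 4 earlier libraries (194 to 273 CPM). Its fitted value was 0.07 (SE 0.11, adjusted p = 0.70) and changed sign to -0.09 with total UMIs as the scale, which moved the median of all genes from -0.01 to -0.17. On that scale 637 genes were called higher and 1330 lower instead of 1017 and 643, and Bak1 passed as lower (-0.62, adjusted p = 0.025).

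CD8-gated cells had the same 2 genes higher on day 4. Mcl1 was 353 and 400 CPM against 289, 297, 192 and 207 CPM (log2 0.80, SE 0.097, adjusted p = 0.0025), and Bcl2l11 63.1 and 72.4 CPM against 40.2, 46.6, 27.8 and 34.7 CPM (1.04, SE 0.087, adjusted p = 0.00059). In each case both day 4 libraries exceeded the other 4. Bcl2a1b, at 70.3 and 98.2 CPM against 80.2, 84.5, 44.5 and 43.2 CPM, passed (0.64, SE 0.14, adjusted p = 0.020), as did Bcl2a1d, at 13.2 and 22.2 CPM against 20.2, 28.8, 5.66 and 7.28 CPM (0.63, SE 0.14, adjusted p = 0.023). For both A1 copies the day 2 libraries overlapped day 4 and the day 3 libraries were the low ones. The Ccl5+ share of CD8 cells, in vehicle and PPCA, was 36 and 45.8% on day 2, 20.2 and 16.8% on day 3, and 22.2 and 35% on day 4. That made 4 of 9 tested members called beside 16.3% of 11974 genes, 4 higher (9.11%) and 0 lower (7.15%), and 5 members did not overlap (background 37.2%), with Bcl2, Bak1 and Bid lower on day 4. The A1 calls were lost when PPCA day 2, vehicle day 3, PPCA day 3 or PPCA day 4 was left out, and without both day 3 libraries Bcl2a1d gave -0.19. Bcl2a1d also lost its call with no treatment term (0.67, adjusted p = 0.063). The Mcl1 call was lost without PPCA day 3 (0.78, adjusted p = 0.059) or without both day 3 libraries (0.65, adjusted p = 0.080). The Bcl2l11 call held in each of these fits. Within Ccl5+ cells 4 members were called (10.1% of genes) and within Ccl5- cells 4 (17% of genes). Bcl2a1b gave 0.66 and 0.57 there (adjusted p = 0.0086 and 0.012) and Bcl2a1d 0.52 and 0.86 (adjusted p = 0.028 and 0.041). With total UMIs as the scale the split was 707 higher and 1843 lower instead of 1091 and 856, 5 members passed, and Bak1 was the added one (-0.51).

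**Figure D4:**
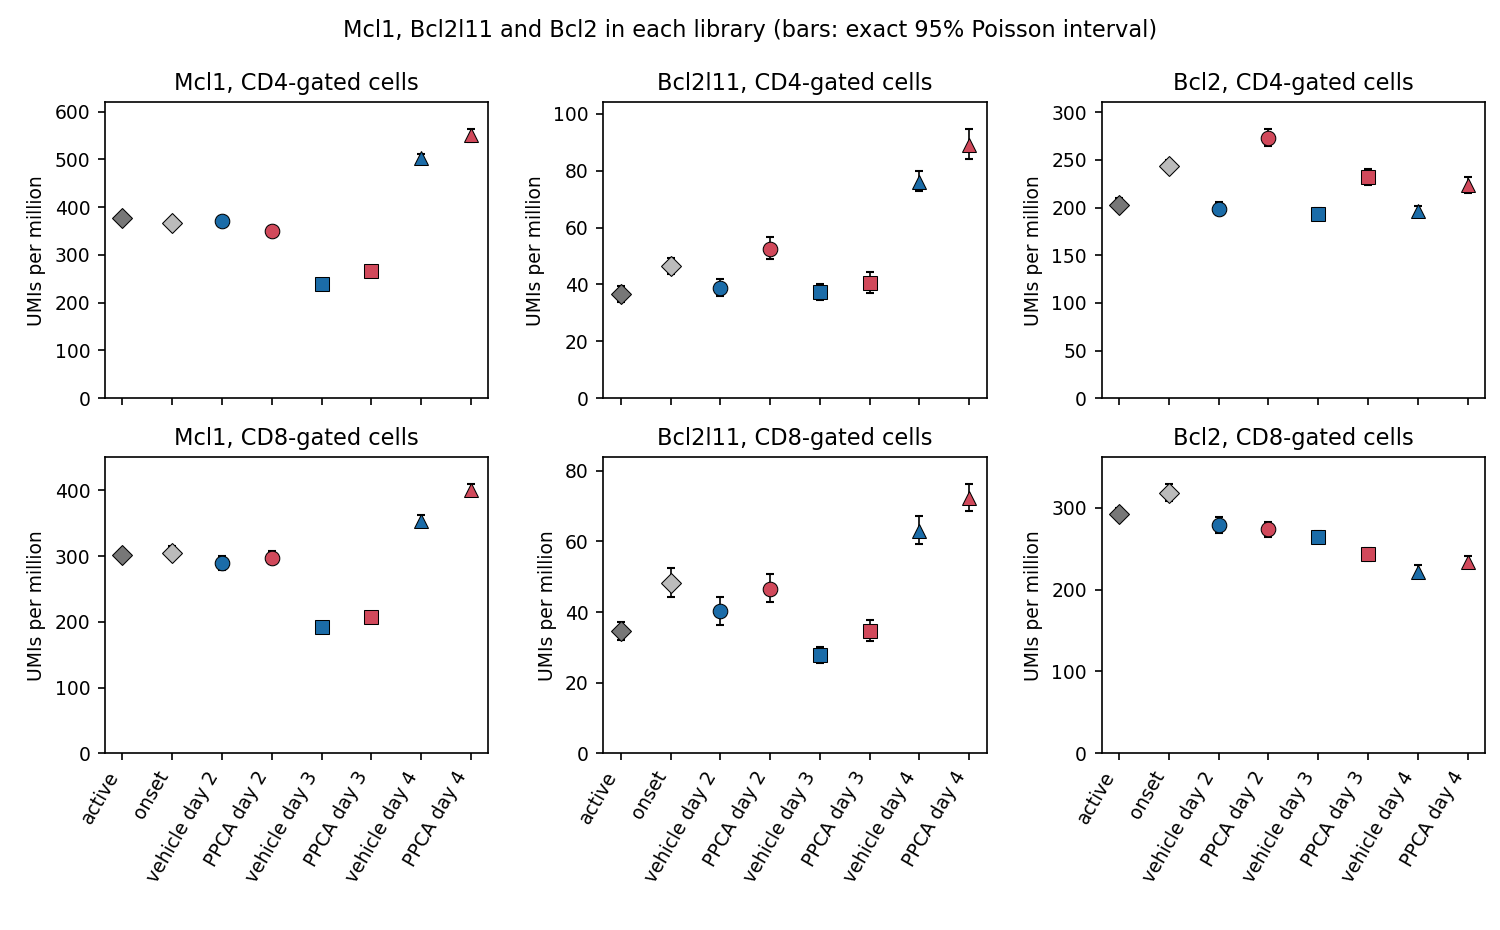
Mcl1, Bcl2l11 and Bcl2 in CPM in CD4-gated (top) and CD8-gated cells (bottom), with 1 point for each of the 8 libraries and bars showing the exact 95% Poisson interval of the count. The 2 day 4 libraries are the highest for Mcl1 (502 and 550 in CD4 cells) and Bcl2l11 (76.2 and 89.2), and not for Bcl2.

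Other death and survival genes moved with harvest day too. In CD4 cells Pmaip1 was 3.56-fold (log2 1.83, adjusted p = 0.0038) and Bbc3 2.92-fold higher on day 4 (1.54, adjusted p = 0.017), 2 of 10 other family genes tested, and none was lower. PPCA day 4 held most of the Bbc3 rise: it had 64.5 CPM and vehicle day 4 28.5 CPM, against 15.2 to 18.8 CPM on days 2 and 3. In CD8 cells 3 of 11 were higher: Bcl2l15 at 3.25-fold, Pmaip1 at 2.26-fold and Bnip3l at 1.30-fold. Bbc3 in CD8 cells gave 1.07 (adjusted p = 0.058), with PPCA day 4 at 59.6 CPM and vehicle day 4 (25.6 CPM) below vehicle day 2 (30.4 CPM). Of 13 death receptor genes 3 were higher and 1 lower in CD4 cells and 3 higher and 2 lower in CD8 cells. The anti-apoptotic NF-kB targets Birc2 (2.52-fold and 2.24-fold) and Birc3 (2.39-fold and 2.08-fold) and the ligand Fasl (3.34-fold and 2.18-fold) rose in both gates, and Tnfsf10 fell by 0.59 and 0.45. Survival inputs had 5 of 20 higher in CD4 cells and 3 higher with 1 lower in CD8 cells. Pim1, a kinase induced by cytokines (3.72-fold and 3.80-fold), Rel (2.30-fold and 2.32-fold) and Nfkb2 (1.55-fold and 1.71-fold), both NF-kB subunits, were shared by the 2 gates. Of 13 genes on the death machinery list 0 were higher and 2 lower in CD4 cells, the caspase inhibitor gene Xiap (-0.55) and Casp6 (-0.67). In CD8 cells 1 was higher and 1, again Xiap (-0.58), lower. March5, whose product marks MCL1 for degradation in some cells, was 1.49-fold and 1.47-fold higher, 1 of 5 turnover genes. List medians ran from -0.22 to 0.36, beside -0.01 for all genes.

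Early response genes, which dissociation and sorting can also induce, moved with the same days. In CD4 cells 10 of them, Fos and Jun among them, summed to 4459 and 7678 CPM on day 4 and to 1109 to 2541 CPM on days 2 and 3, and 6 of the 10 rose past the threshold. In CD8 cells the sums were 3479 and 5094 CPM against 669 to 1511 CPM, and 8 of 10 rose. The 6 NF-kB feedback genes summed to 1471 and 2078 CPM against 355 to 430 CPM in CD4 and to 1113 and 1418 CPM against 257 to 336 CPM in CD8 cells, 5 of 6 rising in each. Markers of other cells moved too: the 6 B cell markers summed to 144 and 117 CPM on day 4 against 204 to 233 CPM in CD4 cells (1 of 4 tested lower) and to 152 and 111 CPM against 202 to 238 CPM in CD8 cells (2 of 4 lower). The 12 pancreas genes summed to 42.4 and 69.2 CPM against 84.4 to 280 CPM in CD4 cells (3 of 7 tested lower), while none of 7 passed in CD8 cells. Of 6 CD8 effector and memory markers 2 were lower in CD8 cells. Among 6 regulatory T markers 1 was higher and 1 lower in CD4 cells, and 1 was higher in CD8 cells. Of 5 resting markers 1 was higher in each gate. The part of these lists in the rise of Mcl1 and Bcl2l11 was not tested.

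Since Mcl1 and Bcl2l11 rose together and Bcl2 did not, the balance between the genes was taken as a ratio of UMIs within a library. These ratios compare libraries, not the amounts of different proteins. Bcl2 to Bcl2l11 in CD4 cells was 2.57 and 2.51 in vehicle and PPCA of day 4, and 5.13 to 5.72 in the other 6 libraries. In CD8 cells it was 3.52 and 3.24 against 5.87 to 9.50. Both day 4 libraries lay below the other 6 in either gate. Mcl1 to Bcl2l11 on day 4 was 6.58 and 6.16 in CD4 cells, inside or next to the 6.42 to 10.3 of the others, and 5.60 and 5.53 in CD8 cells against 5.96 to 8.73. That ratio was highest in the active library in both gates (10.3 and 8.73). No test was run on these ratios, which restate the levels above.

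**Figure D5:**
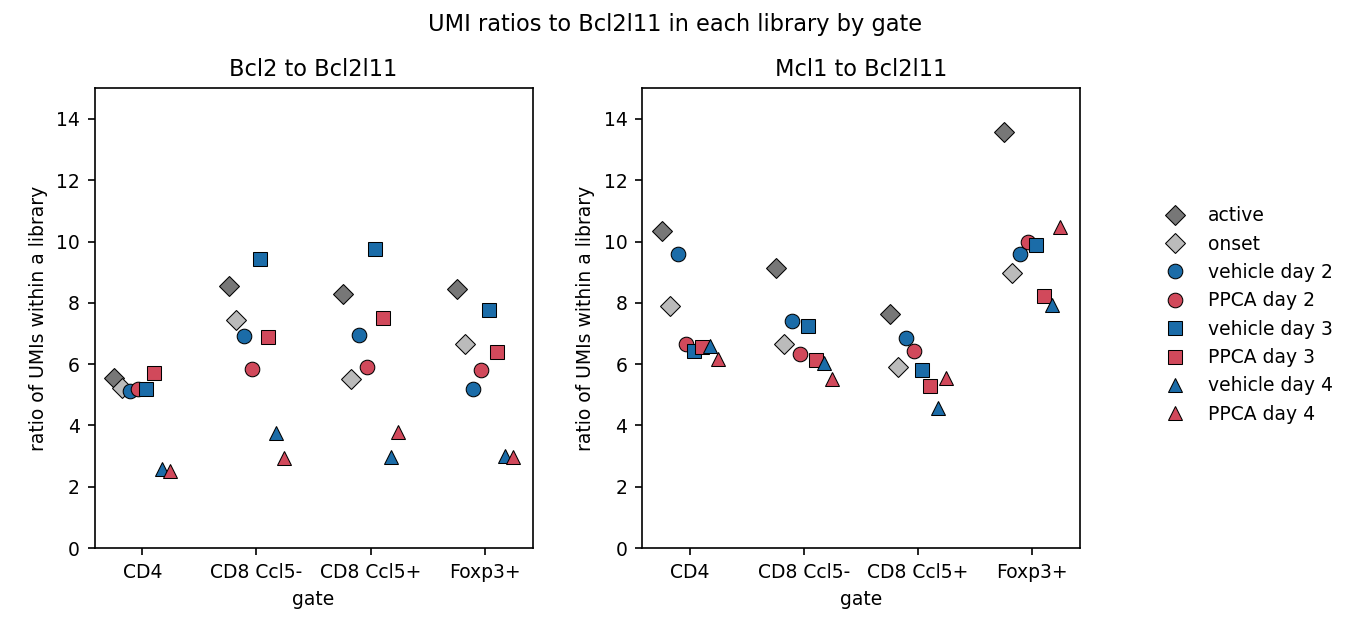
Ratio of Bcl2 to Bcl2l11 UMIs (left) and of Mcl1 to Bcl2l11 UMIs (right) in each gate, with 1 point for each of the 8 libraries. In the left panel the 2 day 4 libraries lie lowest in each of the 4 gates drawn (2.57 and 2.51 in CD4 cells), and in the right panel the active library lies highest in each of these 4.

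Active disease and new onset had 1 library each, so no test was possible, and a member was counted when it differed at least 1.5-fold at a mean of at least 10 CPM. In Ccl5+ CD8 cells 2 members did, both A1 copies and both lower in active disease (background 8.11%). Bcl2a1b was 74.7 CPM (95% exact Poisson interval 67.2 to 82.7) in active disease and 135 CPM (124 to 146) at onset, and Bcl2a1d 22.6 CPM (18.5 to 27.2) against 37.1 CPM (31.7 to 43.2). These intervals, which cover counting error only, did not overlap. In Foxp3+ cells Bak1 was 30.4 CPM (21.8 to 41.2) against 14.5 CPM (9.27 to 21.5), 2.10-fold higher in active disease (background 15%). No member reached that size in CD4 (3.49%) or Ccl5- CD8 cells (4.18%). Bcl2l11 was lower in active disease in all 4 gates without reaching it: 36.5 against 46.5 CPM in CD4, 40.2 against 53.9 in Ccl5+, 32.7 against 44.6 in Ccl5- and 34.8 against 49.4 in Foxp3+ cells. Bcl2 had no common direction, with 203 against 243 CPM in CD4 and 333 against 297 CPM in Ccl5+ cells.

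Genes with a pattern most like a member's were taken over 24 sums (8 libraries by CD4 cells without Foxp3, Ccl5+ CD8 and Ccl5- CD8), among 7307 genes averaging at least 10 CPM. The sums share libraries, depth and gates, so the correlations are descriptions only. Among the genes nearest to Bcl2a1b were Smap1 (Pearson r = 0.97) and its own copy Bcl2a1d (0.96), and among those nearest to Bcl2a1d were Trps1 and Itgb1 (0.97 each). Bcl2l11 was nearest to Tiparp (0.96), Syf2 (0.96) and Rbm39 (0.95), and Mcl1 to Rap1b (0.91), Rsrc2 (0.90) and Mex3c (0.89). Bak1 was nearest to Capn1 (0.93), Bcl2 to Gprin3 (0.83) and Bad to Vps36 (0.81). Bcl2l1, Bid and Bmf lay under 10 CPM and were not compared.

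The authors' deposited table of cluster markers, which covers 7 clusters and lists genes from a log2 fold change of 0.25 and 10% of cells, named 4 of the 10 members. In the authors' deposited table Bcl2a1b was a marker of the cluster they call CD8 TRM TEM (log2 fold change 1.21, detected in 55.6% of its cells). It was also listed in that deposited table by the authors for CD4 Th17 (0.83), CD4 Treg (0.86) and CD4 Th0 (0.51). Bcl2a1d was listed in the authors' deposited table for CD8 TRM TEM (0.73, in 24.3% of cells), CD4 Th17 (0.51) and CD4 Treg (0.30). Mcl1 appears in the authors' deposited table for CD4 Treg (0.41) and Bcl2l11 for CD4 Th0 (0.33). The table was made from these same cells, so it is no independent measurement.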

How the data were processed

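Single-cell 3′ RNA libraries were made from sorted pancreatic T cells of 8 groups or time points. The authors deposited UMI counts per gene and barcode for each library, made with Cell Ranger 6.0.0 per the file headers and Cell Ranger 6.1.2 with Seurat per the submitters' processing notes. For the genome build, the annotation and the handling of shared reads nothing is stated in those sources. The authors' deposited marker table holds log2 fold changes, p-values and, as a fraction, how many cells of a cluster had the gene, printed here as a percent.

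Cells with at least 500 genes and at most 10% mitochondrial UMIs were kept, after removal of Scrublet doublets (scanpy 1.11.5) at 0.8% for each 1000 barcodes (6736 barcodes in all). UMIs were summed by library and gate and tested with edgeR 4.0.16 (R 4.3.3): TMM, filterByExpr, quasi-likelihood test and Benjamini-Hochberg adjustment over all genes. DESeq2 1.42.0 was an alternative. Treatment was tested within days, days with treatment as a factor, and gates with the library as a block. Libraries of the same day deviated together (correlations of 0.161 to 0.624 over the 4 gates), so the day pairs them. On simulated data with 2-fold changes, the PPCA fits recovered 77.4% (CD4, 11650 genes), 85.6% (Ccl5+, 9994 genes), 77% (Ccl5-, 11118 genes) and 77.3% (Foxp3+, 8405 genes). False calls there were 6, 5, 7 and 11, in the same order. Recovery at the spread of each member between these libraries was not tested. Intervals are exact Poisson (scipy 1.17.1), and transcripts were aligned with Biopython 1.88.

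The 10 members were named in every comparison. Genes of 5 lists were counted, and at most the 4 largest past the threshold named, beside Bax, Bbc3, Pmaip1, Il7r and Bcl2a1a. Likeness used log2(CPM + 1). Some genes that this rule names are not reported here. The members and lists were chosen with earlier results of these data known.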

Additional observations from a re-analysis of the deposited data

Results flagged for a closer look

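For 2 members the PPCA libraries lay to one side of vehicle on all 3 days in one gate and to the other side on all 3 days in another. Bcl2l1 gave 0.16 in CD4 cells and -0.67 in Ccl5+ and -0.32 in Ccl5- CD8 cells (log2, PPCA minus vehicle), and the differences between the gates, -0.84 and -0.48, did not pass in edgeR's quasi-likelihood test (adjusted p = 0.79 and 0.87). Bcl2 gave 0.22 in CD4 cells and -0.12 in Foxp3+ cells, whose difference from CD4 cells without Foxp3 was -0.36 (adjusted p = 0.057). By day the Foxp3+ values were -0.007, -0.023 and -0.22 on the log2 scale of CPM, so days 2 and 3 were nearly level. In the Foxp3+ cells of the CD4 gate alone Bcl2 did not keep to one side (0.24, 0.17 and -0.41 by day). For Bcl2 the test of the difference itself passed in Ccl5- CD8 against CD4 cells (-0.34, SE 0.056, adjusted p = 0.033), though by day the Ccl5- values were 0.01, -0.09 and -0.04 on the log2 scale of CPM.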

How the results depend on the processing

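Of 1306 alternative values for single members, 1149 kept direction and side of the threshold, 65 lost a call, 31 gained one and 61 changed sign. The causes of these changes were not tested, beyond what an alternative does by its construction (fewer samples or genes). Each day holds 1 library per arm, so leaving out a replicate number leaves out a day, and day contrasts without day 4 could not be fitted. Scaling by total UMIs, leaving out single libraries of the day contrasts, the fits within Ccl5+ and Ccl5- cells, the Foxp3+ cells of the CD4 gate alone, the interactions and all alternatives of active against onset were chosen after seeing the data. With 2 residual degrees of freedom in the PPCA fits, and at 18 to 68 UMIs of Bcl2l1 in each Ccl5+ sum, small differences of rare members could not be resolved.

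The pairing by day and the library block bore on the counts of calls. With no replicate block the PPCA fits called 0 genes in Ccl5+ and 0 in Foxp3+ cells, the CD8 against CD4 fit 2 members and 2015 genes instead of 6 and 5363, the Ccl5 fit 3 and 1976 instead of 5 and 4305, and the Foxp3+ fit 5 and 2297 instead of 8 and 4110. In the PPCA comparisons it turned the sign of Mcl1 in CD4 (0.0066), Ccl5+ (0.020) and Foxp3+ cells (0.018), and no member gained or lost a PPCA call with it.

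For PPCA against vehicle, genes called in CD4 cells rose from 0 to 35 (DESeq2), 134 (no low-count filter, with 1 member), 188 (Xist presence as a factor, with 1 member) and 0 to 25 leaving out a day. In Ccl5+ cells 1 gene became 20, 142 and 128 in the same order, 2 without doublet removal, 18 with total UMIs and 4 to 120 leaving out a day. In Ccl5- cells 0 became 33, 172 and 360, 3 with total UMIs and 0 to 118. In Foxp3+ cells 7 became 15, 97 and 82, 48 with gate genes at 2 UMIs, 11 with total UMIs and 1 to 42. Some members also changed sign. With total UMIs CD4 cells gave Mcl1 0.067, Bad 0.016 and Bid 0.018, Ccl5+ cells Mcl1 0.066 and Bcl2l11 0.032, Ccl5- cells Bcl2a1b 0.0061 and Foxp3+ cells Mcl1 0.027. Without doublet removal Bcl2a1b in Ccl5- cells gave 0.012 and Mcl1 in Foxp3+ cells 0.016, and the latter 0.049 with gate genes at 2 UMIs. Leaving out a day gave, in CD4 cells, Mcl1 -0.069 to 0.042, Bad -0.16 to 0.023 and Bid -0.17 to 0.11. In Ccl5+ cells it gave Bcl2 -0.26 to 0.0046, Mcl1 -0.069 to 0.044, Bcl2l11 -0.099 to 0.046, Bad -0.39 to 0.063, Bid -0.23 to 0.58 and Bcl2a1b -0.070 to 0.14. In Ccl5- cells it gave Mcl1 -0.050 to 0.085 and Bcl2a1b -0.22 to 0.029, and in Foxp3+ cells Mcl1 -0.13 to 0.032, Bad -0.013 to 0.13, Bak1 -0.17 to 0.014, Bid -0.37 to 0.056 and Bcl2a1b -0.24 to 0.41.

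For day 4 against days 2 and 3, CD4 cells had 5 members called instead of 2 with no low-count filter (2444 of 19594 genes instead of 1660 of 11940). They had 5 with Xist presence (2888 genes), and 2 to 4 members and 505 to 1703 genes leaving out a day or library. CD8 cells had 1 to 4 members and 188 to 2781 genes instead of 1947 in the latter fits, 3586 genes with Xist presence and 1037 within Ccl5+ cells. With no treatment term 3 members were called instead of 4 (1817 of 11974 genes instead of 1947), Bcl2a1d losing its call (0.67, adjusted p = 0.063). Signs changed in CD4 cells for Bcl2 (-0.085 with total UMIs, -0.010 to 0.15 leaving out), Bad (0.0085 with RLE, 0.010 with DESeq2, 0.048 with gate genes at 2 UMIs, 0.018 with Xist presence, -0.13 to 0.13 leaving out) and Bcl2a1d (-0.0092 to 1.14 leaving out). They changed in CD8 cells for Bcl2 (0.00099 within Ccl5+, -0.18 to 0.077 leaving out), Bcl2l1 (-0.20 to 0.14), Bad (0.0045 without doublet removal, 0.13 within Ccl5+, -0.11 to 0.078) and Bcl2a1d (-0.19 to 1.47).

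Between gates, thinning to 2000 UMIs a cell gave 3266 genes for CD8 against CD4, 3 members in the Ccl5 fit and 2189 genes in the Foxp3+ fit. Members called for CD8 against CD4 fell from 6 (5363 of 11574 genes) to 5 with DESeq2 (3993 genes) and to 4 with gate genes at 2 UMIs (4783 of 11133 genes). For the Ccl5 fit they fell from 5 (4305 of 10388 genes) to 4 with DESeq2 (3102 genes), with no low-count filter (5047 of 19972 genes) and in the libraries with Xist alone. In the Foxp3+ fit they fell from 8 (4110 of 10663 genes) to 7 with RLE, DESeq2 or gate genes at 2 UMIs, and to 6 with no low-count filter, thinned cells (2189 genes) or the libraries with Xist alone. For the rest of these Foxp3+ fits the genes called are not reported here, so their member counts have no background. Total UMIs gave 8 members and Mcl1 0.088 in the Ccl5 fit, and in the Foxp3+ fit the Foxp3+ cells of the CD4 gate alone gave Bcl2 -0.034. Bcl2 was -0.031 there with no low-count filter and -0.0021 to 0.12 leaving out a library. Only libraries with Xist gave Bcl2l1 0.017 for CD8 against CD4 (-0.11 to 0.013 leaving out a library) and Bcl2 -0.0061 in the Ccl5 fit.

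For the PPCA difference in a gate minus that in CD4 cells, Xist presence by gate gave 1 member and 23 genes (CD8), 3 and 90 (Ccl5+), 2 and 57 (Ccl5-) and 1 and 55 (Foxp3+). DESeq2 gave 1, 0, 0 and 3 genes and 0 members, and total UMIs 2 genes (Ccl5+), 3 (Ccl5-) and 40 with 1 member (Foxp3+). RLE scaling gave 2 genes for Ccl5+. Leaving out a day gave 0 to 1 members and 2 to 45 genes (CD8), 0 to 2 and 32 to 54 (Ccl5+), 1 to 2 and 27 to 58 (Ccl5-), and 0 to 1 and 45 to 59 (Foxp3+). Members past 1.5-fold between active and onset rose from 3 (7.83% of all genes past that fold over the 4 gates) to 5 without doublet removal (7.06%), 6 with gate genes at 2 UMIs (11.1%) and 7 with thinned cells (18.5%).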
